A study of Mus musculus with 2 samples.

Results

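Caveolins, cavins and their coat accessory genes, 10 in all, were taken by symbol from the 21829 genes with a value in each of 2 RNA sequencing libraries. The cavins are listed under their newer symbols, so that Ptrf was read as Cavin1, Sdpr as Cavin2, Prkcdbp as Cavin3 and Murc as Cavin4. The libraries came from C2C12 cells, an immortalized mouse myoblast line grown in serum-rich medium, 1 from wild-type cells (WT) and 1 from cells with a Gne knockout (KO). Gne encodes the enzyme that starts sialic acid synthesis, and recessive mutations in its human counterpart cause GNE myopathy. The KO cells were made with Cas9 and a guide RNA, and single clones were grown out, so the KO arm stands for clonal cells while the parental WT line was not described as cloned. Both lines derive from C2C12, no treatment was given, and there is 1 library per line. No difference therefore has a replicate check, no P value was computed, and what is due to the loss of Gne cannot be told apart from what is particular to the clone.

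Caveolae are flask-shaped pits of the plasma membrane that are abundant in muscle, fat and endothelium. Caveolins insert into the inner leaflet of the membrane and oligomerize, and cavins assemble on them as a peripheral coat. Together they shape the pit, which flattens when the membrane is stretched. Cav1, Cav2, Cavin1, Cavin2 and Cavin3 are found in many cell types, whereas Cav3 and Cavin4 are the forms typical of striated muscle, where loss of caveolin-3 or cavin-1 causes muscle disease.

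The members differed in direction. Of the 10 genes, 9 had a mean of at least 1 FPKM over both libraries and Cav3 was listed at 0 in both. A single gene, Cavin2, was more than 2-fold lower in the KO-labelled library, and 0 were more than 2-fold higher. Among all 10542 genes past the same filter, 3.43% were more than 2-fold lower and 2.84% more than 2-fold higher. Pacsin2 lay just short of the limit. The other 7 genes differed by less than 2-fold, with Cav1, Cav2, Cavin1, Cavin3 and Ehd2 higher and Cavin4 and Pacsin3 lower in the KO-labelled library.

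The values name no unit and were taken as FPKM, which scales fragments to transcript length and to library depth. Values of different genes can then be compared within a library. Each fold change is log2((KO + 1)/(WT + 1)). The added 1 makes low genes look less different than they are, and the 2-fold limit is a value beyond 1 on this scale in either direction. The values summed to 568543 in WT and 574253 in the KO-labelled library, with 13709 and 13589 genes above 0. The median log2 fold change of the genes past the filter was 0.0061, with quartiles of -0.21 and 0.23. Low values of genes with a single annotated transcript were multiplied by transcript length, in search of a step worth 1 fragment. Whether these values lie at such steps was not tested. The most frequent product of value and length was 0.0372 FPKM times kilobases in WT (16 of 221 such genes) and 0.0427 in the KO-labelled library (15 of 242). If this is the worth of 1 fragment, it would arise from about 26900000 and 23400000 fragments if the unit is FPKM. Fragment numbers below divide a value by this step and rest on 1 canonical transcript per gene, so they are very rough, and their counting error is that of reads without molecular identifiers. Gne itself was 6.67 FPKM in WT and 7.34 FPKM in the KO-labelled library, so its RNA level does not check the labels.

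The letters upstream of 4 members are shown here for these reasons: Cavin2 had the largest difference of the members, Cavin4 is the cavin of muscle, and Cav1 and Cav2 are neighbors that differed alike. Each run is the 250 bases before the transcription start in the RefSeq promoter table (GRCm38.p6), read 5′ to 3′ on the strand of the gene. Capitals mark the E-box CANNTG, the letters that myogenic factors of the MyoD family bind, read on both strands.
Cavin2, chr1:51288876-51289125, plus strand: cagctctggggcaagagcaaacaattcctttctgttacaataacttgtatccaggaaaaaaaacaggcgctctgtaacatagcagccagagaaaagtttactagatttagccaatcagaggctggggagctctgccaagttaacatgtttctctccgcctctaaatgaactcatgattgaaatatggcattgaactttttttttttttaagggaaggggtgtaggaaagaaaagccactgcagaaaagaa
Cavin4, chr4:48663264-48663513, plus strand: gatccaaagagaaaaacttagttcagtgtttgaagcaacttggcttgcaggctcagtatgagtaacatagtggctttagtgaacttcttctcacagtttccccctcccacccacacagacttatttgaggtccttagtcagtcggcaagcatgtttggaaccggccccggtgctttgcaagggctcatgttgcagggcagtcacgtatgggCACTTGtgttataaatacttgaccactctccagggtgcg
Cav1, chr6:17306085-17306334, plus strand: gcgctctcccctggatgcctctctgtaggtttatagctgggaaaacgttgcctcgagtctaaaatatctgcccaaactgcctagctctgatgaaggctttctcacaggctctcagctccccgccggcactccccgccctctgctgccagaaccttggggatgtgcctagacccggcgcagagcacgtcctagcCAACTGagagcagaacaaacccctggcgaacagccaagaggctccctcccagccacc
Cav2, chr6:17280935-17281184, plus strand: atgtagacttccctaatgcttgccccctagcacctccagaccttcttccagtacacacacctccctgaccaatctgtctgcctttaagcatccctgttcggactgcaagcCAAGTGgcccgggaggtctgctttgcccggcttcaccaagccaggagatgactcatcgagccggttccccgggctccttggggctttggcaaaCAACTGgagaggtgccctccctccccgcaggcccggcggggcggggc

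The Cavin2 window held 0 matches to the E-box, to the GC box GGGCGG, to TATAAA, to the TEAD motif GGAATG and to the CArG box, each searched on both strands, and it had a GC content of 40.4%, against a median of 52.4% over all promoter windows of the same length. The Cavin4 window held an E-box beginning 39 bases before the start and TATAAA beginning 30 bases before it, which do not overlap. The Cav1 window held 1 E-box, 57 bases before the start, and, both on the opposite strand, 1 GC box at 118 bases and TATAAA at 221 bases. The Cav2 window held E-boxes at 140 and 47 bases and a GC box at 9 bases. Of the 32817 windows in the table, 66.2% held an E-box, 32.7% the GC box, 12.4% TATAAA, 12.6% the TEAD motif and 1.47% the CArG box. The table had 14 windows for 9 of the members, several genes having more than 1 start, and an E-box lay in 10 of these windows, from 7 members. A match describes these letters only.

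Caveolins form the membrane-embedded scaffold. Cav1, the principal caveolin outside striated muscle, lies on chromosome 6 from 17306140 to 17341451 (plus strand, GENCODE vM39 on GRCm39). Its value was 178 FPKM in WT and 219 FPKM in the KO-labelled library, giving a log2 fold change of 0.29. This placed it at rank 466 and rank 366 of the 10542 genes, so it was among the more abundant transcripts of both lines. Cav2, which needs caveolin-1 to reach the plasma membrane, lies on the same strand from 17281026 to 17289877, and the middles of these genes are 38.3 kb apart. Its value was 33.9 FPKM in WT and 44.5 FPKM in the KO-labelled library, giving a log2 fold change of 0.38. Cav1 exceeded Cav2 by 5.26 times in WT and 4.92 times in the KO-labelled library, so the balance between them was nearly the same in both.

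Genes around the pair were on balance higher as well. Of the 13 genes past the filter within 5 Mb of Cav1, Cav2 among them, 8 were higher and 5 lower in the KO-labelled library. Their median log2 fold change was 0.23, against 0.0061 over all genes past the filter. The 13 genes around Cav2, Cav1 among them, had the same split and median. After this median was subtracted, 0.065 was left for Cav1 and 0.15 for Cav2. Tes, the nearest gene before Cav2, was 52.1 and 81.4 FPKM (log2 fold change 0.64). Met, the nearest gene after Cav1, was 37.7 and 33.0 FPKM, a log2 fold change of -0.19.

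Cav3, the muscle caveolin, lies on chromosome 6 from 112436466 to 112449833 (plus strand). It was listed at 0 in both libraries, so no ratio was formed. Of 14 markers of differentiating muscle, 1 passed the filter and their summed level was 3.14 FPKM in WT and 4.21 FPKM in the KO-labelled library. Acta1, skeletal muscle actin, made up most of it at 1.84 and 3.93 FPKM, and Myog, the factor that drives terminal differentiation, was 0.068 and 0.027 FPKM. The summed level of the caveolins was thus that of Cav1 and Cav2, 212 FPKM in WT and 264 FPKM in the KO-labelled library. The log2 ratio of these sums was 0.31.

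**Figure D1:**
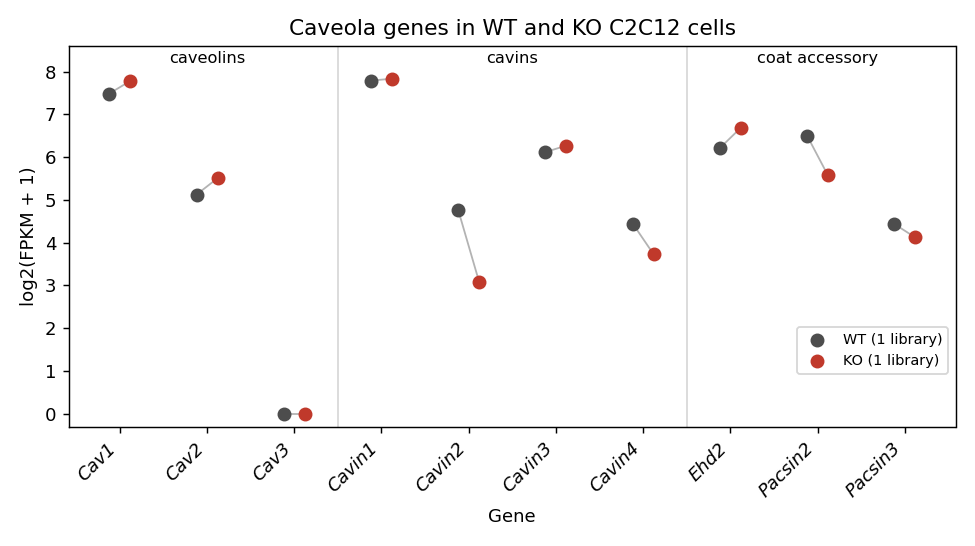
Level of each member as log2(FPKM + 1) on the vertical axis, with 1 point per library and lines joining the 2 libraries of a gene. Cavin2 and Pacsin2 show the steepest drops from WT to KO, Cavin1 is nearly level at 220 and 227 FPKM, and Cav3 lies at 0 in both.

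Cavins form the coat around the caveolin scaffold. Cavin1, without which caveolae do not form, lies on chromosome 11 from 100847559 to 100861713 (minus strand). It had the highest value of all members in both libraries, 220 FPKM in WT and 227 FPKM in the KO-labelled library, and its log2 fold change of 0.05 was close to the median of all genes. Cavin3, a cavin that binds protein kinase C delta, lies on chromosome 7 from 105128391 to 105131507 (minus strand). It was 68.5 FPKM in WT and 76.2 FPKM in the KO-labelled library, giving a log2 fold change of 0.15. Cavin1 exceeded Cavin3 by 3.22 times in WT and 2.98 times in the KO-labelled library. These most abundant cavins therefore differed little between the lines, in level and in ratio.

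Cavin2, which is known to promote membrane curvature and tubules, lies on chromosome 1 from 51328266 to 51345710 (plus strand). It fell from 26.2 FPKM in the WT library to 7.47 FPKM in the KO-labelled library, giving a log2 fold change of -1.68. The level was 3.50 times higher in WT, and the rank of the gene went from 3503 to 7548 of 10542. Only 1.31% of all genes past the filter had a lower log2 fold change. These values correspond to roughly 4690 and 1166 fragments, with counting errors of about 1.46% and 2.93%, far less than the difference if these estimates hold. The spread between cultures is unknown, and in bulk RNA a smaller share of a cell type and less RNA per cell cannot be told apart.

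The genes around Cavin2 did not share its difference. Within 5 Mb, 27 genes passed the filter, 17 of them higher and 10 lower in the KO-labelled library, with a median of 0.07, and 0 of the 27 were as low as Cavin2. With that median subtracted, Cavin2 stood at -1.75. Tmeff2, the nearest gene before it, was 3.92 and 1.52 FPKM, a log2 fold change of -0.96. Nabp1, the nearest gene after it, was 8.91 and 12.6 FPKM, a log2 fold change of 0.46.

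Cavin4, the muscle cavin, lies on chromosome 4 from 48663503 to 48674045 (plus strand). It was 20.8 FPKM in WT and 12.3 FPKM in the KO-labelled library, giving a log2 fold change of -0.72, which does not reach the 2-fold limit. Of all genes past the filter, 5.61% had a lower log2 fold change. Its fragments numbered roughly 1462 and 750, with counting errors near 2.62% and 3.65%. Cavin4 was above 0 in both libraries, whereas Cav3, the other muscle form, was listed at 0. Of its 38 neighbors within 5 Mb, 0 were as low, and their median was -0.06. Gne, the edited gene, is among these neighbors, at -4.61 Mb from Cavin4 by middle and with a log2 fold change of 0.12. The nearest were Tmeff1, at 13.8 and 12.9 FPKM, and Mrpl50, at 20.9 and 16.8 FPKM.

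The make-up of the cavin RNA differed accordingly. The summed cavin level was 336 FPKM in WT and 323 FPKM in the KO-labelled library, a log2 ratio of -0.05. Within it, Cavin2 made up 7.79% in WT and 2.31% in the KO-labelled library, and Cavin4 6.21% and 3.80%. Cavin1 made up 65.6% and 70.3%, and Cavin3 20.4% and 23.6%. For each unit of Cavin2 there were 8.42 of Cavin1 in WT and 30.4 in the KO-labelled library. Cavins exceeded caveolins by 1.58 times in WT and by 1.23 times in the KO-labelled library.

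**Figure D2:**
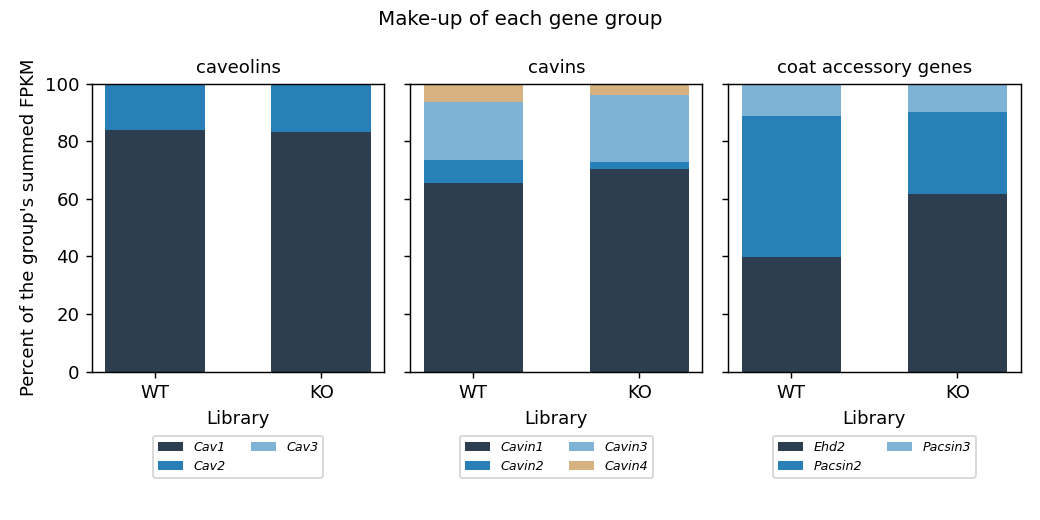
Percent of the summed FPKM of each gene group (vertical axis) held by each gene, as stacked bars for the WT and KO library. Cavin2 takes 7.79% of the cavins in WT and 2.31% in KO, and Pacsin2 48.9% and 28.2% of the coat accessory genes, while the caveolin bars look alike.

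Coat accessory genes act at the neck of the pit. Ehd2, an ATPase that holds caveolae at the surface, lies on chromosome 7 from 15680874 to 15701629 (minus strand). It was 73.1 FPKM in WT and 102 FPKM in the KO-labelled library. Its log2 fold change of 0.48 was the highest of the members and still below the limit, with 10.9% of all genes past the filter above it. The 67 neighbors within 5 Mb had a median of -0.03, and Nop53 and Bicra, the nearest on either side, had log2 fold changes of 0.05 and -0.05.

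Pacsin2, an F-BAR protein that bends membranes and recruits dynamin, lies on chromosome 15 from 83258424 to 83348819 (minus strand). It was 89.7 FPKM in WT and 46.6 FPKM in the KO-labelled library, giving a log2 fold change of -0.93. WT was 1.93 times higher, and 3.76% of all genes past the filter had a lower log2 fold change. Here the neighbors were low as well: of 95 genes within 5 Mb, 89 were lower in the KO-labelled library and 6 higher, and their median log2 fold change was -0.40. After its subtraction, -0.53 was left for Pacsin2, and 8 of the 95 neighbors were at least as low as it. Arfgap3 and Ttll1, the nearest on either side, had log2 fold changes of -0.76 and -0.79. The part of this shared shift in the value of Pacsin2 was not tested.

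**Figure D3:**
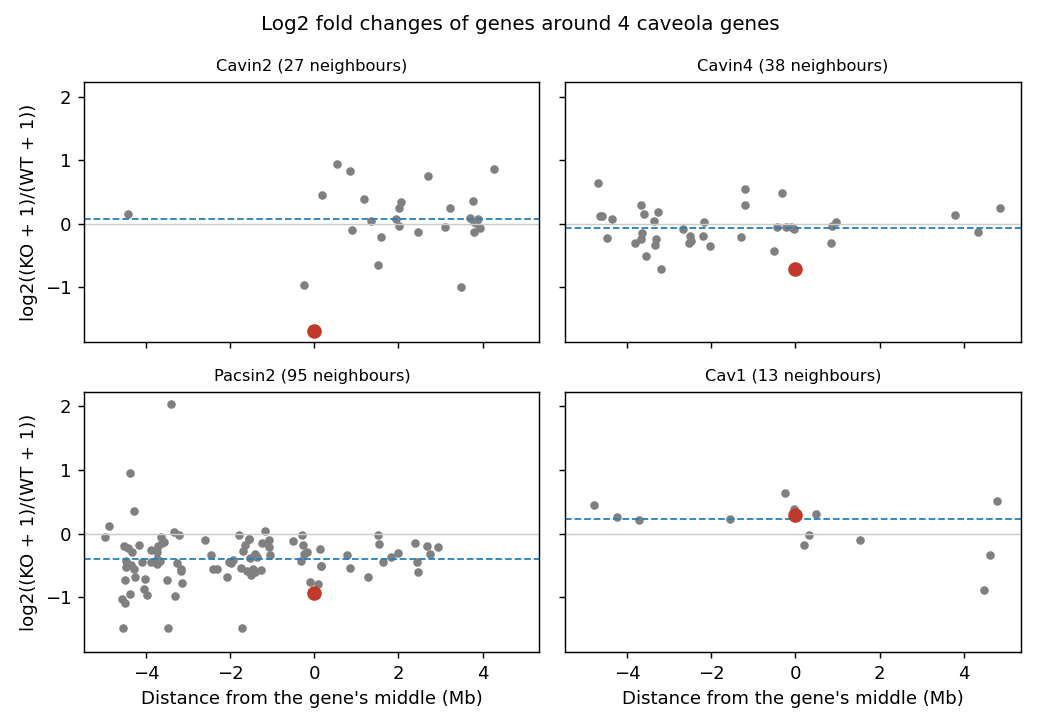
Log2 fold change (vertical axis) of the genes past the filter within 5 Mb of Cavin2, Cavin4, Pacsin2 and Cav1, by distance in Mb from the middle of that gene, which is drawn in red. The dashed line is the neighbors' median, at 0.07, -0.06, -0.40 and 0.23, and Cavin2 lies below all of its 27 neighbors whereas Pacsin2 lies in a cloud that is itself below 0.

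Pacsin3, the muscle-enriched pacsin, lies on chromosome 2 from 91086095 to 91095033 (plus strand). It was 20.7 FPKM in WT and 16.4 FPKM in the KO-labelled library, giving a log2 fold change of -0.31, next to a median of -0.15 over its 39 neighbors. Ehd2 was lower than Pacsin2 in the WT library, at 0.82 of its level, and 2.19 times higher in the KO-labelled library. Together the accessory genes summed to 183 FPKM and 165 FPKM, a log2 ratio of -0.15. Ehd2 made up 39.8% and 61.8% of that sum.

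In order of level, the WT library ran from Cavin1 and Cav1 through Pacsin2, Ehd2, Cavin3, Cav2, Cavin2, Cavin4 and Pacsin3 to Cav3. In the KO-labelled library, Pacsin2 stood below Ehd2 and Cavin3, and Cavin2 stood below Pacsin3 and Cavin4. With a single library per line, neighbors in this order such as Cavin4 and Pacsin3, at 20.8 and 20.7 FPKM in WT, cannot be ranked. Over the 9 members past the filter the median log2 fold change was 0.05, against 0.0061 over all genes, with 5 genes higher and 4 lower.

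**Figure D4:**
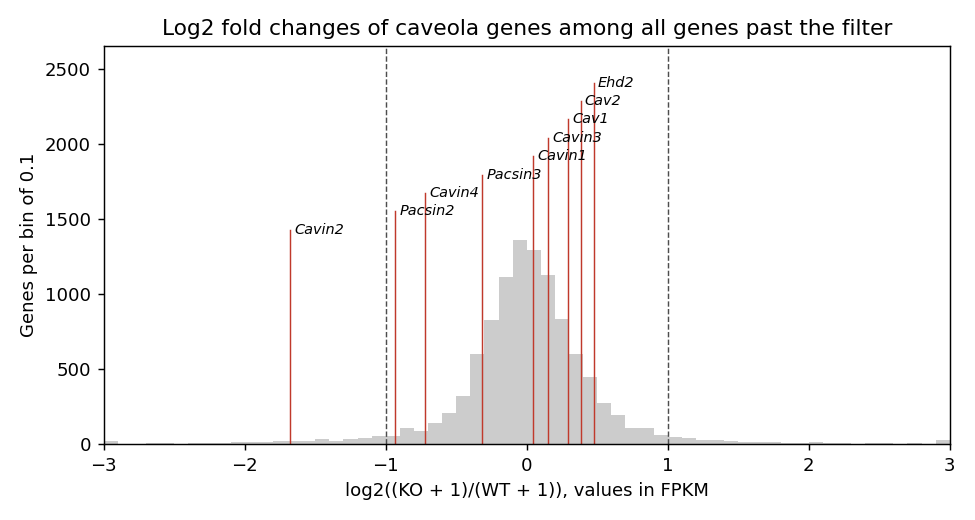
Gray bars count all 10542 genes past the filter by log2 fold change in bins of 0.1, with values beyond 3 placed in the outermost bins, and red lines mark the 9 members past the filter (their height only separates the names). Dashed lines are the 2-fold limits, and Cavin2 at -1.68 is the member beyond them.

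Genes related to caveolae by structure or function were compared in the same way, as 4 lists. Among relatives of the EHD and BAR domain members, 7 of 9 passed the filter, of which 1 was more than 2-fold lower and 0 higher, and their median was -0.14. The lower gene was Ehd3, an EHD family ATPase of the endocytic recycling route, which fell from 13.9 to 6.18 FPKM (log2 fold change -1.06). Its relative Ehd1 was 64.1 and 72.5 FPKM and Ehd4 was 46.2 and 29.4 FPKM, so the 4 EHD genes did not differ alike. Bin1, a BAR protein of muscle T-tubules, had the highest mean of the list at 79.9 and 72.3 FPKM, and the pacsin of neurons, Pacsin1, was 0.039 and 0.021 FPKM.

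Flotillins and other proteins with an SPFH domain mark membrane microdomains other than caveolae. Of 10 genes, 9 passed the filter, 0 were past the 2-fold limit in either direction, and the median was -0.12. Phb2, a prohibitin of mitochondria, was the most abundant at 213 and 187 FPKM. Flot1 was 24.7 and 14.9 FPKM, a log2 fold change of -0.70, and its partner Flot2 was 47.0 and 43.2 FPKM.

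Dynamins, filamins and kinases that act on caveolin scission, anchoring or tyrosine phosphorylation had a median of 0.30 over the 10 of 12 genes past the filter, 7 of them higher and 3 lower, with 0 past the limit. Flna, the actin crosslinker that anchors caveolae, was the most abundant at 257 and 319 FPKM, a log2 fold change of 0.31. Dnm2, the ubiquitous dynamin, was 22.7 and 33.3 FPKM. Src, which phosphorylates caveolin-1, was 16.0 and 16.2 FPKM.

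Of 16 genes for proteins that have been described in caveolae, 10 passed the filter, 7 higher and 3 lower, with a median of 0.23. Itgb1, the integrin beta 1 chain, was the most abundant at 153 and 247 FPKM, a log2 fold change of 0.69, in a region whose genes had a median of 0.34. Nos1, the neuronal nitric oxide synthase of muscle, was the only one past the limit. It fell from 3.58 to 0.36 FPKM (log2 fold change -1.75), and is named although its mean of 1.97 FPKM lies below the level set for naming list genes. Slc2a4, the insulin-regulated glucose transporter, and Dysf, dysferlin, did not pass the filter, Slc2a4 at 0.46 FPKM in WT and listed at 0 in the KO-labelled library, and Dysf at 0.21 and 0.79 FPKM.

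**Figure D5:**
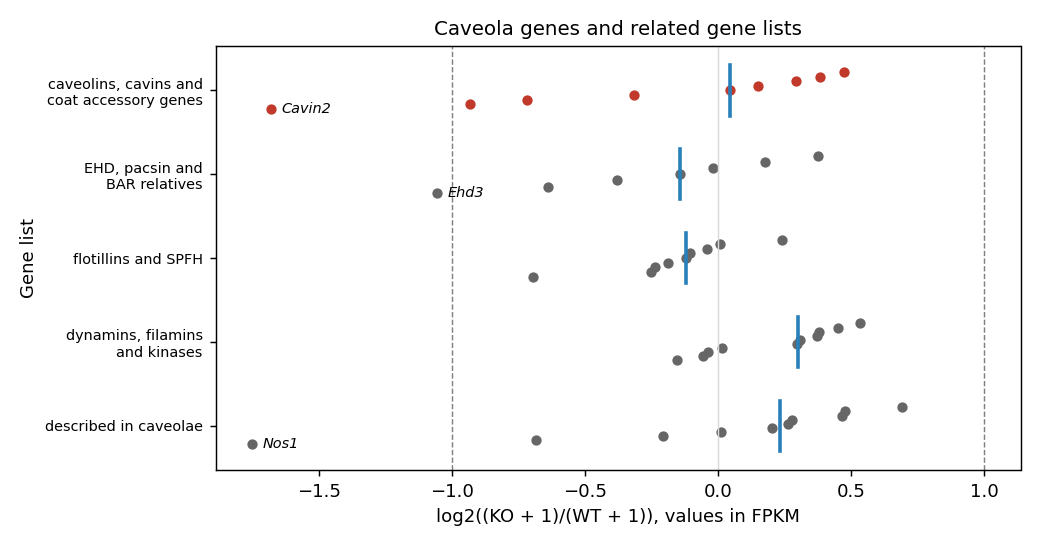
Log2 fold change of each gene past the filter (points) in the members, in red, and in 4 related lists, in gray, with the median of each list as a blue bar and the 2-fold limits as dashed lines. Cavin2, Ehd3 and Nos1 are the genes beyond a limit, all on the lower side, and the medians lie between -0.14 and 0.30.

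Markers of cell types rich in caveolae moved unevenly with these values. Of 8 myoblast markers, 7 passed the filter, 4 of them more than 2-fold lower in the KO-labelled library and 1, Myf5, more than 2-fold higher. Their summed level was 245 FPKM in WT and 90.07 FPKM in the KO-labelled library. The lower genes were Myod1, listed at 0 in the KO-labelled library, Des, Cdh15 and Chrna1, while Pax7 was listed at 0 in both. Genes around Myf5 had a median log2 fold change of 0.35, and 0.72 was left for Myf5 after its subtraction. The 4 lower genes stayed past the limit after the same subtraction. Of 6 smooth muscle markers, 3 passed the filter and 2, Acta2 and Tagln, were more than 2-fold higher, with summed levels of 257 and 626 FPKM, but the defining Myh11 was 0.009 and 0.020 FPKM. Of 7 fibroblast markers, 4 passed and 2, Col1a1 and Col1a2, were more than 2-fold higher, with summed levels of 313 and 988 FPKM and with Thy1 and Lum listed at 0 in both. The part of these lists in the values of Cavin2 and Cavin4 was not tested.

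Endothelial and adipose cells, which are dense in caveolae, left little trace. All 8 endothelial markers were at or below 0.052 FPKM in both libraries, Cdh5 and Kdr being listed at 0. Of 7 adipocyte markers, 5 were listed at 0 in both libraries, among them Adipoq and Plin1, and Pparg was 10.2 and 9.31 FPKM. Among 6 macrophage markers, 1 passed the filter, Cd68 at 2.85 and 1.06 FPKM, and Ptprc was listed at 0 in both.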

How the data were processed

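RNA from WT and Gne KO C2C12 cells was sequenced by the authors, 1 library per line. The authors deposited 1 value per gene symbol, taken here as FPKM because the columns have unequal totals. Steps with transcript length would arise in TPM as well, so they cannot tell these units apart. No unit accompanies the numbers, and TPM restricted to these genes would change fold changes by 1 factor per library. According to the submitters' processing notes, Trim Galore 0.6.6, STAR 2.7.9a and RSEM 1.3.3 were used. The paper's methods name an earlier STAR version, and the build is GRCm39 in the methods and GRCm38 in the notes. The values carry no coordinates. Kits and read lengths also differ between the methods (MGI) and the sample description (Illumina), both stranded.

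Where a symbol occurred more than once (24 of 21853 rows were repeats), the most abundant row was used. Genes averaging 1 FPKM or more were kept, with a pseudocount of 1 and no count model. Neighboring genes were those within 5 Mb, by middle, in GENCODE vM39, which placed 10171 of the 10542 genes. A fragment step was the fullest bin (0.1 on the log2 scale) of value times length among genes below 0.3 FPKM with 1 transcript. Named genes were all members and the nearest neighbors of Cav1, Cav2, Cavin2, Cavin4, Ehd2 and Pacsin2. The nearest neighbors of Cavin1, Cavin3 and Pacsin3 are not given. List genes were named if past 2-fold with a mean of at least 5 FPKM or highest in a related list. Other list genes, and the motifs, were chosen after values were seen. Members and lists were chosen with earlier results of these data known. The procedure was run on simulated data whose planted changes lay well past the limit over a small spread, which checks the code only. The error of the 2-fold calls in these libraries was not tested. Python 3.11.15, numpy 2.4.6, pandas 2.3.3 and matplotlib 3.10.9 were used.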

Additional observations from a re-analysis of the deposited data

How the results depend on the processing

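With 1 library per line, leaving out a replicate was not possible. No paired analysis was possible because the values come from no test and the lines share 1 replicate number. The alternatives were pseudocounts of 0.1 and 5, scaling by the median of ratios (factor 1.0087) and to the upper quartile (0.994), leaving out the filter, raising it to 5 FPKM, and subtraction of the median of neighboring genes. Under all 7 alternatives 1 member, Cavin2, was more than 2-fold lower and 0 were more than 2-fold higher. Most of the alternatives could not have moved these calls. The filters leave the values of the 9 members unchanged, and the scaling factors are too close to 1. A pseudocount of 0.1 cannot bring Pacsin2, 1.93 times higher in WT, past 2-fold. Only the pseudocount of 5 and the subtraction of the neighbors' median could have changed a call. Each of the 9 members kept its sign, but a pseudocount or a filter cannot change a sign. The scaling factors are too close to 1 to do so here, so only the subtraction of the neighbors' median could have changed it. The log2 fold change of Cavin2 ranged from -1.79 to -1.32, that of Pacsin2 from -0.94 to -0.53, that of Cavin4 from -0.76 to -0.58 and that of Cav1 from 0.065 to 0.30. The median of the members ranged from 0.023 to 0.065. The sums of caveolins, cavins and accessory genes kept their direction under both scalings, whose factors are too close to 1 to have changed it. Over all genes, the counts of 299 higher and 362 lower were 102 and 176 at pseudocount 5, and 145 and 221 under the filter of 5 FPKM, which leaves fewer genes. The ratio of the fragment steps, 1.15, is a rough estimate of relative depth, and the spread between cultures cannot be had from these data.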
